A study of Mus musculus with 12 samples.

Results

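The proteasome genes were taken as every protein-coding gene of the count table whose mouse symbol begins with Psma, Psmb, Psmc, Psmd or Psme and a number, which gave 44 genes of the 55487 in the table. Another 4 entries with such symbols are pseudogenes or other non-coding types and were left out, as was Psmc3ip, which shares the letters but encodes no proteasome protein. The 44 genes were grouped by role into 7 alpha ring subunits, 4 non-catalytic beta subunits, 3 constitutive catalytic subunits, 3 immune catalytic subunits, 2 tissue-specific subunits, 6 ATPases and 11 non-ATPases of the regulatory particle, 3 assembly chaperones that carry Psmd symbols, the PA28 alpha and beta pair, and 3 other activators. The rule uses symbols and no measured value, although the members were chosen with earlier results of these data known.

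The proteasome degrades proteins that carry ubiquitin chains. Its barrel-shaped core particle has outer rings of alpha subunits, which control entry, and inner rings of beta subunits, of which Psmb5, Psmb6 and Psmb7 cut peptide bonds. A regulatory particle caps the barrel, where a ring of ATPases (Psmc) unfolds the substrate and non-ATPase subunits (Psmd) bind ubiquitin, hold the cap together and remove the chains. In leukocytes, and in other cells exposed to interferon gamma, Psmb8, Psmb9 and Psmb10 can be built in at the positions of Psmb5, Psmb6 and Psmb7, giving the immunoproteasome, which is best known for making peptides for MHC class I. In the kidney, protein degradation is a major task of the proximal tubule.

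RNA of mouse kidney cortex was sequenced in 12 libraries, 3 for each of 4 groups, from mice on a mixed C57BL/6 background, 6 to 8 weeks old. All mice carried ALR flox/flox alleles, in which LoxP sites flank part of the gene Gfer, the source of augmenter of liver regeneration (ALR). Control mice had no Cre and a sham operation, and KO mice carried Ggt1-Cre, which is active in the proximal tubule, so that other kidney cells keep the gene. Control-IR and KO-IR mice had the same genotypes and underwent bilateral ischaemia for 22 min followed by 24 h of reperfusion (I/R). Total counts ran from 12165089 to 23123693 per library. The names KO and KO-IR are those of the labels, since Gfer counts did not set the genotypes apart: Gfer stood at 12.7, 11.3 and 14.5 CPM (counts scaled to library size) in Control and at 10.01, 17.1 and 15.1 CPM in KO. After I/R it stood at 15.3, 20.02 and 17.7 CPM in Control-IR and at 21.3, 22.7 and 21.4 CPM in KO-IR, so that every library labelled KO-IR was above every Control-IR library (log2 change 0.32, edgeR adjusted p = 0.0723, not called). These counts include exons outside the floxed part and cells without Cre. The paper reports lower ALR expression in kidneys of its knockout mice than in those of controls.

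Control libraries 1 and 2 carried Xist (22402 and 19755 counts) and no Y-linked counts, whereas the third Control library, whose column name matched no sample number, and the 9 libraries of the other groups had at most 11 Xist counts and at least 3109 Y-linked counts. Sex therefore differed within Control and between Control and the other groups, and for the comparisons that use Control the calls and the log2 changes of the main members are also given without those 2 libraries. Levels and sums in Control include them. KO-IR against Control-IR and KO-IR against KO do not use them. The labels do not say whether the libraries of a group came from separate mice, so the tests measure the spread between these libraries. In bulk RNA, fewer cells of a type and less RNA per cell cannot be told apart.

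Levels are CPM after TMM scaling. Per kilobase of the principal transcript, the members with the highest levels in Control were core subunits, led by Psma4 at 132.2 ± 20.9 CPM per kilobase (SD, n = 3), an alpha ring subunit, and Psmb6 at 100.7 ± 9.71, although other core subunits lay below several genes of the regulatory particle. The other constitutive catalytic subunits stood at 85.2 ± 14.2 (Psmb7) and 41.8 ± 7.43 (Psmb5) CPM per kilobase. The immune catalytic subunits were the lowest of the 42 members that passed the filter on low counts, with Psmb10 at 7.28 ± 1.27, Psmb8 at 5.78 ± 1.41 and Psmb9 at 3.59 ± 0.83 CPM per kilobase. Psmb10 and Psmb8 did not differ beyond their spread, nor did Psmb6 and Psmb7. Psmb11, the catalytic subunit known from the thymus, had 0 or 1 count in every library, which is under the floor of 3 counts, and Psma8, the alpha subunit known from testis, had 0 to 15 counts. Neither passed the filter, and both stay out of the tests.

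**Figure D1:**
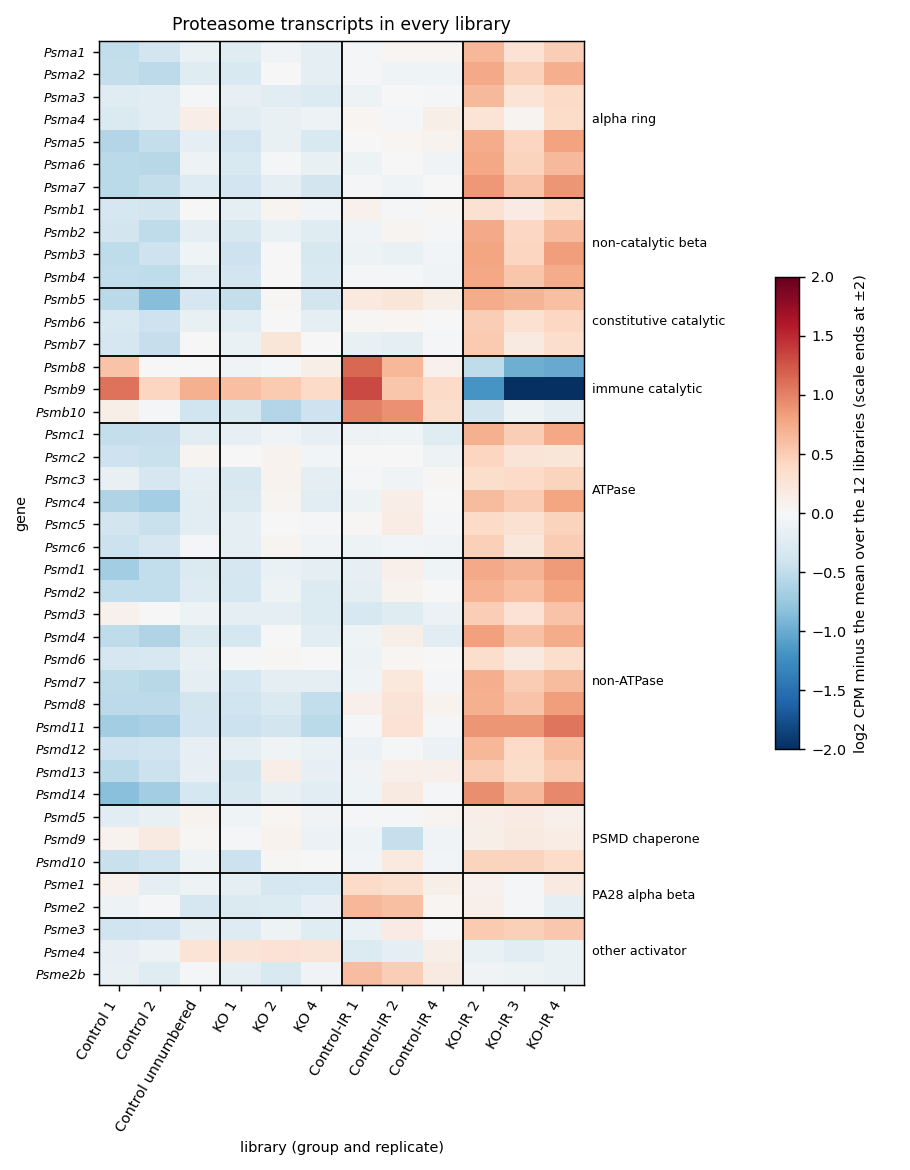
Rows are the 42 tested proteasome genes, ordered by role, and columns are the 12 libraries. Colour gives log2 CPM minus the gene's mean over all libraries, with the scale ending at ±2. Psmb8 and Psmb9 are the darkest blue in KO-IR, where most core and regulatory particle genes are red.

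In KO-IR against Control-IR the immune and the constitutive catalytic genes moved in opposite directions. Sequence upstream of the 4 catalytic genes in which a motif was found is shown. Psmb10 had no match to any motif searched, and the promoter of Psmb7 was not analysed here. The sequences come from the RefSeq promoter table (build GRCm38.p6), which held 37 of the 44 members, and were searched on both strands over the 250 bases before the start. Psmb9 and Tap1, the peptide transporter gene, start 225 bases apart on opposite strands of chromosome 17, and Psmb8 lies next to Tap1. In GENCODE M21 (GRCm38), Psmb9 spans chr17:34181987-34187764, Psmb8 chr17:34197721-34201454, Psmb5 chr14:54614119-54618022 and Psmb6 chr11:70525367-70527858. The stretches of Psmb9 and Psmb8 lie inside exons annotated for other transcripts and are cut to 30 bases. Capitals mark a CCAAT box for Psmb9 (read as ATTGG on this strand), TTCNNNGAA (GAS, the interferon gamma activated sequence) for Psmb8, and TGACNNNGC (an element like that bound by NRF1 and NRF2) for Psmb5 and Psmb6.
Psmb9, chr17:34187331-34187360, minus strand: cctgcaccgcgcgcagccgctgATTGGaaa
Psmb8, chr17:34198088-34198117, plus strand: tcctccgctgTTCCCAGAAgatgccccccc
Psmb5, chr14:54618023-54618105, minus strand: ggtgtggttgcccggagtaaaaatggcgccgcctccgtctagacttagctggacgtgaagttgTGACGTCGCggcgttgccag
Psmb6, chr11:70525257-70525356, plus strand: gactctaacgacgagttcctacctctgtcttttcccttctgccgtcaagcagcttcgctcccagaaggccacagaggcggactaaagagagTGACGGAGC

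The GAS letters occurred in 1 of the 37 member promoters, that of Psmb8, and in 7.02% of the 32851 promoters in the table. The TGACNNNGC letters occurred in 5 members (Psmb5, Psmb6, Psmc6, Psmd9 and Psmd12) and in 10.2% of all promoters. The core of the interferon-stimulated response element, GAAANNGAA, occurred in 3 members (Psmb3, Psmd4 and Psmd9) and in 7.13% of all promoters, and an NF-kB-like motif, GGGANTTTC, in 0 members and 0.941% of all. CCAAT occurred in 14 members and in 33.8% of all promoters. These matches describe letters in the windows searched and no binding was measured.

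The comparison of KO-IR with Control-IR addresses what the knockout adds after I/R. The immune catalytic subunits were lower in KO-IR while the constitutive catalytic subunits and nearly all structural and regulatory particle subunits were higher. Of the 42 tested members, 31 were called higher and 4 lower at an adjusted p under 0.05 (edgeR's quasi-likelihood test with Benjamini-Hochberg adjustment over 15281 genes). Over all genes, 22.5% were called higher and 24.4% lower. The median log2 fold change was 0.50 over the members and -0.0049 over all genes.

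Psmb9, which takes the place of Psmb6, stood at 7.10, 4.18 and 3.70 CPM in Control-IR and at 1.26, 0.576 and 0.512 CPM in KO-IR. The groups did not overlap, and the KO-IR values rested on 15, 13 and 8 counts. The log2 change was -2.72 ± 0.43 (SE, edgeR adjusted p = 0.00201), a level 6.60-fold lower. Psmb9 shares 212 of its 3660 exon bases (5.79%) with Tap1 on the opposite strand, and whether reads were counted by strand is not given in the sources used here.

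Psmb8, which takes the place of Psmb5, stood at 17.9, 12.8 and 8.55 CPM in Control-IR and at 5.71, 4.12 and 4.03 CPM in KO-IR. Every KO-IR library was below every Control-IR library, and the level was 2.84-fold lower (log2 change -1.50 ± 0.29 SE, edgeR adjusted p = 0.00467). Psmb10, which takes the place of Psmb7, stood at 20.5, 19.2 and 13.0 CPM in Control-IR and at 7.90, 9.44 and 9.02 CPM in KO-IR. It was 1.98-fold lower (log2 change -0.99 ± 0.20 SE, edgeR adjusted p = 0.00506), and its KO-IR values lay within the range of the libraries without I/R (6.79 to 11.01 CPM).

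The constitutive catalytic subunits were all higher in KO-IR. Psmb5, which cuts after hydrophobic residues, stood at 63.6, 65.3 and 59.9 CPM in Control-IR and at 92.6, 88.9 and 84.3 CPM in KO-IR (log2 change 0.51 ± 0.09 SE, edgeR adjusted p = 0.00307). Psmb6, which cuts after acidic residues, stood at 99.2, 100.6 and 99.1 CPM in Control-IR and at 137.4, 121.6 and 130.2 CPM in KO-IR (log2 change 0.39 ± 0.09 SE, edgeR adjusted p = 0.0102). Psmb7, which cuts after basic residues, stood at 107.1, 104.9 and 115.2 CPM in Control-IR and at 170.1, 133.4 and 151.2 CPM in KO-IR (log2 change 0.49 ± 0.12 SE, edgeR adjusted p = 0.0116). None of the 3 genes overlapped between the groups. Psmb7 shares 405 exon bases with Nek6 on the opposite strand, and Nek6 counts were 536 to 1326 in Control-IR and 1554 to 3006 in KO-IR.

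**Figure D2:**
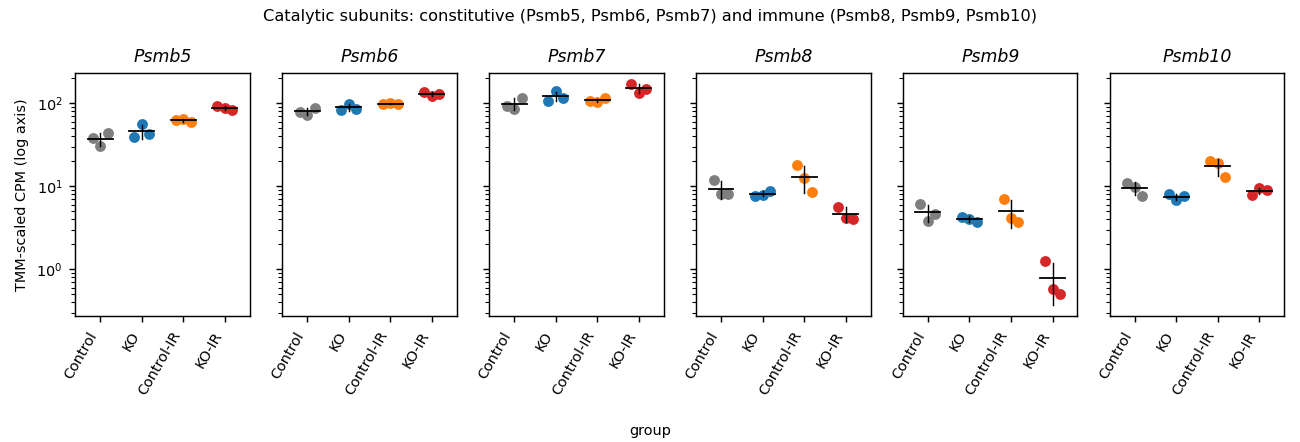
Each panel plots 1 catalytic subunit, with TMM-scaled CPM on a log axis and 1 point per library, a bar at the group mean and a line of 1 SD. Psmb9 falls from 3.70 CPM or more in Control-IR to 1.26 CPM or less in KO-IR, while Psmb5, Psmb6 and Psmb7 are highest in KO-IR.

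The balance was summarised per library as the mean log2 CPM of the 3 immune subunits minus that of the 3 constitutive subunits. This index was -2.67, -3.13 and -3.57 in Control-IR and -5.07, -5.32 and -5.48 in KO-IR. It was -2.82, -3.10 and -3.54 in Control and -3.46, -3.93 and -3.60 in KO. The KO-IR libraries thus lay below all 9 others, and the other 3 groups overlapped. On the CPM per kilobase scale, immune subunits made up 7.97% ± 2.10 (SD, n = 3) of the summed level of the 6 catalytic genes in Control-IR and 2.52% ± 0.15 in KO-IR, against 6.90% ± 1.60 in Control and 4.90% ± 0.74 in KO. Within the pairs, log2 Psmb9 over Psmb6 moved from -4.38 ± 0.50 in Control-IR to -7.49 ± 0.64 in KO-IR. Log2 Psmb8 over Psmb5 moved from -2.33 ± 0.49 to -4.28 ± 0.23, and log2 Psmb10 over Psmb7 from -2.66 ± 0.43 to -4.11 ± 0.31.

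The structural subunits of the core were called higher in 6 of 7 alpha and 3 of 4 non-catalytic beta genes. Psma7, the alpha subunit with the largest change, stood at 105.4, 101.8 and 108.1 CPM in Control-IR and at 196.1, 160.1 and 198.8 CPM in KO-IR (log2 change 0.83 ± 0.12 SE, edgeR adjusted p = 0.00129). Psma4, the alpha subunit with the smallest change, stood at 170.7, 163.8 and 180.5 CPM in Control-IR and at 201.8, 173.6 and 214.2 CPM in KO-IR, and was not called (log2 fold change 0.21, 95% interval -0.06 to 0.48). Psma7 thus rose without overlap, whereas the Psma4 groups overlapped. Among the beta subunits, Psmb3 stood at 71.8, 69.8 and 73.6 CPM in Control-IR and at 133.3, 103.3 and 137.3 CPM in KO-IR (log2 change 0.81 ± 0.13 SE, edgeR adjusted p = 0.00194). Psmb1 was the one not called, at 123.0, 113.8 and 117.5 CPM in Control-IR against 142.8, 129.4 and 147.3 CPM in KO-IR (log2 fold change 0.26, 95% interval 0.02 to 0.49, edgeR adjusted p = 0.0673).

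All 6 ATPases were called higher in KO-IR, with a median log2 fold change of 0.47. Psmc1, an ATPase whose tail opens the gate of the core, had the largest change, from 122.5, 123.7 and 111.1 CPM in Control-IR to 216.2, 184.6 and 225.6 CPM in KO-IR (log2 change 0.82 ± 0.12 SE, edgeR adjusted p = 0.00125). Psmc5 had the smallest, from 83.3, 91.1 and 79.8 CPM to 106.8, 102.1 and 111.9 CPM (log2 change 0.35 ± 0.09 SE, edgeR adjusted p = 0.0176). Neither gene overlapped between the groups.

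All 11 non-ATPases were called higher as well, with a median log2 fold change of 0.69. Psmd11, a scaffold subunit of the lid, had the largest rise of the 42 members, from 88.7, 110.8 and 88.6 CPM in Control-IR to 167.6, 167.3 and 191.2 CPM in KO-IR (log2 change 0.88 ± 0.12 SE, edgeR adjusted p = 0.00113). Psmd6, another lid subunit, had the smallest change of the non-ATPases, from 86.6, 94.7 and 92.6 CPM to 117.9, 105.1 and 117.8 CPM (log2 change 0.33 ± 0.09 SE, edgeR adjusted p = 0.0229). Psmd13 shares 342 exon bases with Sirt3 and Psmc3 shares 215 with Slc39a13, both on opposite strands, so the levels of these 2 members are less certain. Sirt3 counts were 425 to 975 in Control-IR and 254 to 424 in KO-IR, against the direction of Psmd13. Slc39a13 counts were 419 to 558 in Control-IR and 370 to 947 in KO-IR.

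The 3 Psmd genes for assembly chaperones, which help to build the base of the regulatory particle and leave the finished particle, included 1 gene called higher and 0 called lower. Psmd10 (gankyrin) was the one called, at 20.9, 24.9 and 20.9 CPM in Control-IR and 29.7, 29.6 and 28.1 CPM in KO-IR (log2 change 0.40 ± 0.11 SE, edgeR adjusted p = 0.0193). Psmd5 stood at 54.8, 55.4 and 58.4 CPM against 61.7, 63.0 and 59.9 CPM and was not called (log2 fold change 0.14, 95% interval -0.05 to 0.34). Psmd9 was not called either (edgeR adjusted p = 0.0627), and 25.5% of its exon bases overlap an antisense-strand lincRNA.

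**Figure D3:**
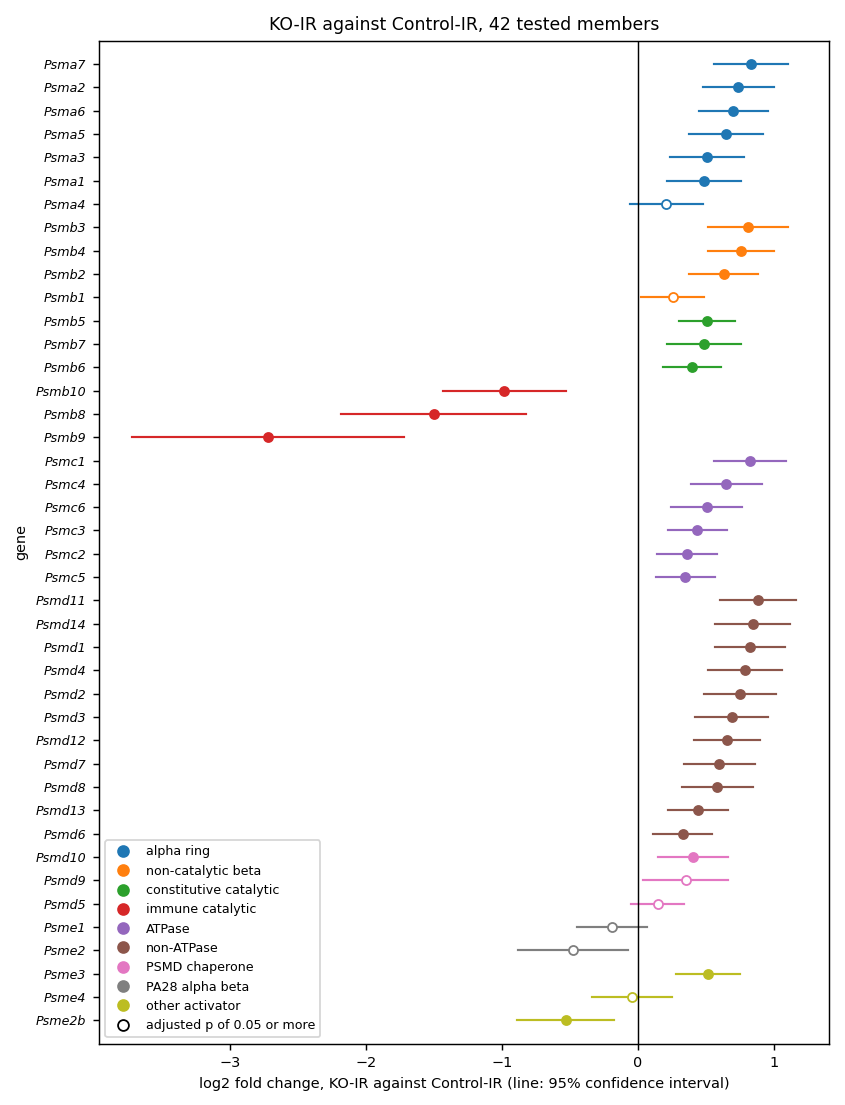
Points are log2 fold changes of KO-IR against Control-IR for the 42 tested members, coloured by role, with lines for the 95% confidence interval and open points for an adjusted p of 0.05 or more. The 3 immune catalytic subunits lie between -2.72 and -0.99, and the core and regulatory particle genes between 0.21 and 0.88.

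The activators that can replace the regulatory particle did not move as 1 group. Psme1 and Psme2, the alpha and beta subunits of PA28, are induced by interferon gamma. Psme1 stood at 56.3, 54.2 and 46.9 CPM in Control-IR and at 45.9, 42.3 and 48.7 CPM in KO-IR, which overlapped and were not called (log2 fold change -0.19, 95% interval -0.45 to 0.07). Psme2 stood at 36.8, 35.5 and 24.0 CPM in Control-IR and at 25.0, 23.01 and 20.7 CPM in KO-IR (log2 change -0.48 ± 0.18 SE, edgeR adjusted p = 0.0545). It was not called here, but was called lower by DESeq2 (adjusted p = 0.0456), with adjusted p from 0.0064 to 0.339 over all alternatives. Psme2b, a gene closely related to Psme2 that may share reads with it, was called lower, against the direction of Psme3, at 16.8, 15.4 and 12.4 CPM in Control-IR and 10.4, 10.2 and 10.04 CPM in KO-IR (log2 change -0.53 ± 0.15 SE, edgeR adjusted p = 0.0241).

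Psme3, the nuclear activator PA28 gamma, was called higher, from 88.7, 109.3 and 97.2 CPM in Control-IR to 139.9, 135.9 and 142.3 CPM in KO-IR (log2 change 0.52 ± 0.10 SE, edgeR adjusted p = 0.00488). Psme4, the activator PA200, stood at 200.4, 212.1 and 262.9 CPM in Control-IR and 221.6, 206.4 and 221.4 CPM in KO-IR, which overlapped (log2 fold change -0.04, 95% interval -0.34 to 0.25).

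TMM scaling mattered to the counts. With library totals in its place, the median log2 fold change of all genes in KO-IR against Control-IR was -0.21, and 19 members were called higher and 6 lower, the latter being Psmb8, Psmb9, Psmb10, Psme1, Psme2 and Psme2b. Over all genes that fit called 1978 higher and 5080 lower. The median of the members remained above that of all genes, at 0.30.

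The comparison of Control-IR with Control addresses I/R without the knockout. I/R was accompanied by modestly higher levels of some core and regulatory particle genes and of Psmb10, and no member was called lower. Of the 42 tested members, 10 were called higher (edgeR, adjusted p under 0.05), where 11.4% of all 15567 genes were called higher and 7.97% lower. The median log2 fold change was 0.34 over the members and -0.011 over all genes. Psmb5 rose from 38.3, 30.6 and 43.9 CPM in Control to 63.6, 65.3 and 59.9 CPM in Control-IR (log2 change 0.74 ± 0.14 SE, edgeR adjusted p = 0.0175). Psmb10 rose from 11.01, 9.86 and 7.74 CPM to 20.5, 19.2 and 13.0 CPM (log2 change 0.88 ± 0.22 SE, edgeR adjusted p = 0.0328).

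The others with the smallest p were the regulatory particle subunits Psmd8 (log2 fold change 0.61, edgeR adjusted p = 0.0141), Psmd11 (0.65, edgeR adjusted p = 0.0212) and Psmd14, the enzyme that removes ubiquitin chains (0.63, edgeR adjusted p = 0.0273). Psmb8 and Psmb9 were not called. Psmb8 stood at 12.1, 8.16 and 8.02 CPM in Control (log2 fold change 0.48, 95% interval -0.21 to 1.17), and Psmb9 at 6.06, 3.84 and 4.68 CPM (log2 fold change 0.05, 95% interval -0.68 to 0.77).

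The number of calls moved with the libraries used. Without both Xist-carrying Control libraries 1 member, Psmb10, was called higher (log2 fold change 1.17, edgeR adjusted p = 0.0349), while Psmb5 stood at 0.50 (edgeR adjusted p = 0.119), Psmd8 at 0.49, Psmd11 at 0.45, Psmd14 at 0.35, Psmb8 at 0.69 and Psmb9 at 0.09. The member median was then 0.15, against 0.34 with all libraries, and 664 of all genes were called higher, against 1778. With sex as a covariate in a fit to all 12 libraries 3 were called, Psmb10, Psmd8 and Psme2, with 1066 of all genes called higher. No member was called without Control library 1 or without Control library 2, 1 without Control-IR library 1, 3 without Control-IR library 2, and 19 without the unnumbered Control library. Without Control library 1 or 2 the member medians were 0.31 and 0.31, and over all genes 320 and 343 were called higher. In the other fits the all-gene calls were 616 without Control-IR library 1, 1009 without Control-IR library 2 and 1353 without the unnumbered Control library. Without the unnumbered library, Control holds only Xist-carrying libraries and Control-IR only libraries with Y-linked counts. Sex and I/R cannot be told apart in that fit. DESeq2 called 18 members higher (2164 of all genes) and library totals 28 (2346 of all genes).

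The comparison of KO with Control addresses the knockout without I/R. No member passed an adjusted p of 0.05 in edgeR, where 0% of 15291 genes were called in either direction, and DESeq2 called 0 members, with 191 of all genes called higher and 267 lower. At an unadjusted p under 0.05 there were 7 of the 42 members, where 16.8% of all genes passed, so the members did not stand apart from the background. The catalytic subunits had log2 fold changes of 0.29 (Psmb5), 0.15 (Psmb6) and 0.29 (Psmb7), and of -0.23 (Psmb8), -0.28 (Psmb9) and -0.36 (Psmb10). The 95% intervals of all 6 included 0. They ran from -0.08 to 0.67 for Psmb5, from -0.07 to 0.38 for Psmb6 and from -0.02 to 0.61 for Psmb7, and from -0.66 to 0.21 for Psmb8, from -0.78 to 0.22 for Psmb9 and from -0.75 to 0.04 for Psmb10. Psmb8 stood at 7.73, 7.87 and 8.76 CPM in KO, and Psmb9 at 4.31, 4.10 and 3.70 CPM. Without both Xist-carrying libraries edgeR called 0 members, and the member median turned from 0.16 to -0.03. The log2 changes were then 0.07 for Psmb5, 0.0076 for Psmb6, 0.05 for Psmb7, 0.0079 for Psmb8, -0.22 for Psmb9 and -0.05 for Psmb10. Without the unnumbered Control library 10 members were called higher, namely the core subunits Psma6 and Psmb7, the ATPases Psmc1, Psmc2, Psmc4 and Psmc5, the regulatory particle subunits Psmd1, Psmd6 and Psmd14, and the activator Psme4. In that fit 1091 of all genes were called higher and 839 lower, where none were with all libraries. Its Control libraries both carried Xist, whereas every KO library had Y-linked counts, so sex and genotype cannot be told apart there.

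The comparison of KO-IR with KO addresses I/R in mice with the knockout. Nearly all core and regulatory particle genes rose and Psmb8 and Psmb9 fell. Of 42 members, 34 were called higher and 3 lower (edgeR), where 32.9% of all 15155 genes were called higher and 32.7% lower. The median log2 fold change was 0.67 over the members and 0.011 over all genes. All 7 alpha, 4 non-catalytic beta, 3 constitutive catalytic, 6 ATPase and 11 non-ATPase genes were among those higher.

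Psmd11 rose from 67.6, 70.5 and 62.3 CPM in KO to 167.6, 167.3 and 191.2 CPM in KO-IR, or 2.65-fold (log2 change 1.405 ± 0.09 SE, edgeR adjusted p = 8.48e-07). Psmd8 (log2 fold change 1.11, edgeR adjusted p = 6.05e-06), Psmd1 (0.997, edgeR adjusted p = 7.13e-06), Psmd14 (1.10, edgeR adjusted p = 8.72e-06) and Psma7 (1.10, edgeR adjusted p = 1.39e-05) followed. Psmb5 rose from 39.7, 56.1 and 43.1 CPM to 92.6, 88.9 and 84.3 CPM (log2 fold change 0.95, edgeR adjusted p = 8.49e-05). Psmb6 rose by 0.54 and Psmb7 by 0.33 on the log2 scale, the latter with groups that overlapped.

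Psmb9 fell from 4.31, 4.10 and 3.70 CPM in KO to 1.26, 0.576 and 0.512 CPM in KO-IR (log2 change -2.41 ± 0.35 SE, edgeR adjusted p = 1.80e-04), and Psmb8 from 7.73, 7.87 and 8.76 CPM to 5.71, 4.12 and 4.03 CPM (log2 change -0.81 ± 0.19 SE, edgeR adjusted p = 0.00425). Psmb10, at 8.11, 6.79 and 7.65 CPM in KO, was not called (log2 fold change 0.24, 95% interval -0.11 to 0.59). Among the activators, Psme4 fell from 287.6, 296.9 and 290.3 CPM to 221.6, 206.4 and 221.4 CPM (log2 change -0.42 ± 0.08 SE, edgeR adjusted p = 0.00121). Psme1 (0.37) and Psme3 (0.72) rose, and Psme2 was not called (0.23, edgeR adjusted p = 0.0995).

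The interaction asks whether the I/R effect differed between the genotypes. In a fit to all 12 libraries, 17 of 42 members had a higher I/R effect with the knockout and 2 a lower one (edgeR), where 14.3% of all 16168 genes were called higher and 16.4% lower. The median was 0.35 over the members and -0.017 over all genes. The number called higher was 8 without KO library 1 or KO-IR library 4, 9 without KO library 4, and 10 without Control-IR library 1 or without a filter on low counts. The all-gene calls in these fits were 1813, 1646, 1754, 1783 and 1800 in the same order, against 2305. Psmb9 was lower by this measure (log2 -2.45, SE 0.49, edgeR adjusted p = 0.0032), as was Psmb8 (log2 -1.28, SE 0.37, edgeR adjusted p = 0.0222). Psmb10 did not pass (log2 -0.63, 95% interval -1.21 to -0.05, edgeR adjusted p = 0.0945). No constitutive catalytic subunit passed, with values of 0.22 for Psmb5, 0.25 for Psmb6 and 0.20 for Psmb7 and intervals that included 0.

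The largest positive interaction was that of Psmd3, a scaffold subunit of the lid (log2 0.91, SE 0.14, edgeR adjusted p = 8.33e-04). Psmd3 stood at 155.9, 147.4 and 137.0 CPM in Control and 118.3, 124.9 and 136.3 CPM in Control-IR, but at 129.7, 129.9 and 121.6 CPM in KO and 208.4, 179.8 and 217.9 CPM in KO-IR. Its Control-IR values were thus below all Control values and its KO-IR values above all KO values, an order that Psmd9 also had. Psmd11 (0.77, edgeR adjusted p = 0.00513), Psma7 (0.72, edgeR adjusted p = 0.00533) and Psmc1 (0.59, edgeR adjusted p = 0.0119) had the next smallest p of those called higher, while Psmb3 (0.73, edgeR adjusted p = 0.0181) was larger than Psma7 in size. By role, the interaction was called higher in 4 of 7 alpha, 3 of 4 non-catalytic beta, 1 of 6 ATPase and 7 of 11 non-ATPase genes, and in 0 of 3 constitutive catalytic genes.

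Without both Xist-carrying Control libraries, where 1111 of all genes were called higher and 1428 lower against 2305 and 2648 with all libraries, the interaction was called higher in 15 members and lower in Psmb8 (log2 -1.52, edgeR adjusted p = 0.0489) and Psmb9 (log2 -2.51, edgeR adjusted p = 0.0246). Psmd3 (0.80), Psmd11 (0.93), Psma7 (0.87) and Psmc1 (0.74) were also called in that fit, while Psmb10 (-0.94), Psmb5 (0.43), Psmb6 (0.38) and Psmb7 (0.43) were not. The call of Psmb8 was lost without Control library 2, Control-IR library 1, KO library 4, KO-IR library 3 or KO-IR library 4, with edgeR adjusted p from 0.0501 to 0.0571.

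**Figure D4:**
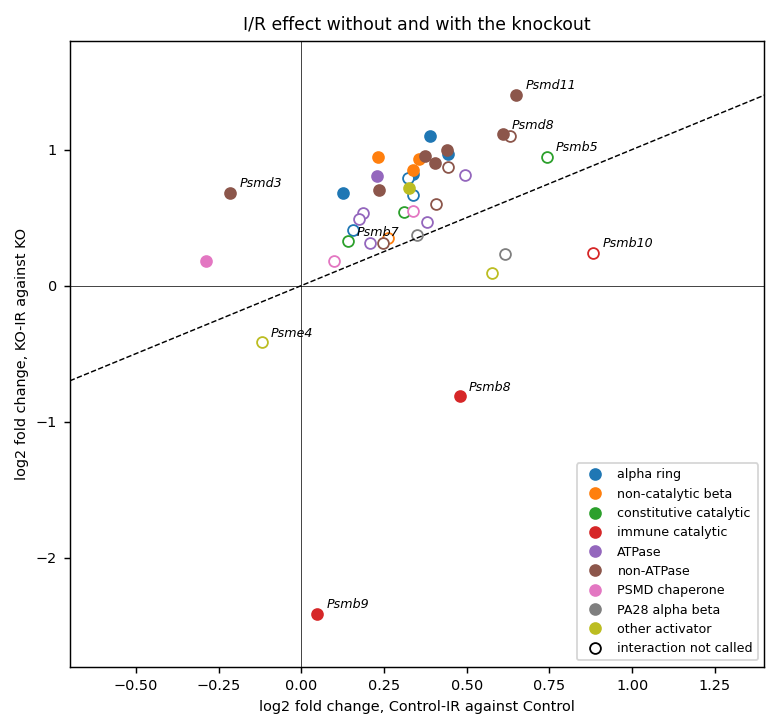
Each point is 1 of the 42 tested members, with its log2 fold change of Control-IR against Control on the x axis and of KO-IR against KO on the y axis, coloured by role, filled where the interaction was called, and with a dashed line where both would be equal. The 2 comparisons share no library. Psmb9 lies at 0.05 and -2.41, Psmb8 at 0.48 and -0.81, and Psmd3 at -0.22 and 0.68.

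The genes around the proteasome were examined in KO-IR against Control-IR from lists by role, and each count stands against the 22.5% of all genes called higher and 24.4% called lower. Of the 5 chaperones that assemble the core, Pomp, which helps the beta rings mature, was called higher (log2 fold change 0.34, edgeR adjusted p = 0.0477) and Psmg1 lower (-0.49, edgeR adjusted p = 0.0119), with Psmg3 at 0.48 not called. Of 14 subunits and partners with other symbols, 8 were called higher and 1 lower. The ubiquitin receptor Adrm1 was the highest (log2 fold change 1.06, edgeR adjusted p = 3.99e-04).

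The 8 genes listed for the NRF1 route, by which cells raise proteasome genes when degradation falls short, included Nfe2l2 and Nfe2l3. Of these 8, 4 were called higher and 0 lower. Nfe2l1, which encodes NRF1, stood at 169.7, 181.3 and 178.4 CPM in Control-IR and 210.7, 224.4 and 222.1 CPM in KO-IR (log2 fold change 0.33, edgeR adjusted p = 0.0229). It stood at 244.1, 230.4 and 199.6 CPM in Control and 215.9, 183.8 and 212.0 CPM in KO. The KO-IR values thus lay within the Control range. In KO-IR against KO, 3 of the 8 genes were called higher and 3 lower, where 32.9% and 32.7% of all genes were. Nfe2l2, which encodes NRF2, had the largest change (0.96, edgeR adjusted p = 0.00388), and Nfe2l3 the lowest value (-0.61, not called). Of 6 genes for ubiquitin and its activation, 2 were called higher and 2 lower, close to those shares, with Rps27a, which encodes ubiquitin fused to a ribosomal protein, the highest at 0.70 (edgeR adjusted p = 0.0179).

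Of 22 genes of MHC class I presentation and the interferon response, 20 were tested, 15 were called lower and 1, Irf8 (log2 fold change 0.65), higher. Ifit3 was the lowest (-3.17, edgeR adjusted p = 2.65e-04). Irf1 (-1.07, edgeR adjusted p = 0.0144) and the class I regulator Nlrc5 (-1.63, edgeR adjusted p = 0.0152) were also lower. Tap1, the neighbour of Psmb9, stood at 21.1, 20.8 and 8.17 CPM in Control-IR and 6.22, 8.07 and 8.31 CPM in KO-IR (log2 fold change -1.13, edgeR adjusted p = 0.0271), with overlapping groups. B2m, the class I light chain, was lower (-0.70, edgeR adjusted p = 0.027), whereas H2-K1 (0.15) and H2-D1 (0.01) were not called.

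Markers of other cell types moved with these results. The summed level of 20 leukocyte markers was 86.7 to 111.7 CPM in Control, 91.5 to 95.1 CPM in KO, 153.4 to 258.0 CPM in Control-IR and 85.0 to 110.8 CPM in KO-IR. Of the 11 tested in KO-IR against Control-IR, 7 were called lower and 3 higher. The lowest were the T cell gene Cd8a, with 58 to 159 counts per library in Control-IR and 0 to 4 in KO-IR, and the macrophage gene Adgre1, with 112 to 224 counts in Control-IR and 3 to 10 in KO-IR, and the highest was the neutrophil gene S100a9 at 1.67 (edgeR adjusted p = 0.013). The macrophage gene Cd68 was also called higher (0.76, edgeR adjusted p = 0.0117), and Itgam, found on neutrophils and macrophages, was not called (-0.20). Ptprc, the common leukocyte antigen, stood at 39.7, 32.6 and 19.1 CPM in Control-IR and 5.71, 6.03 and 6.46 CPM in KO-IR (log2 fold change -2.32, edgeR adjusted p = 5.72e-04). In Control-IR, library 1 had the highest and library 4 the lowest values of Psmb8, Psmb9, Psmb10, Ptprc and the summed leukocyte markers. This order did not hold in KO-IR. There, library 2 had the highest values of Psmb8 and Psmb9 but the lowest of Psmb10, Ptprc and the summed leukocyte markers. Ly6g was at 0 in every Control and every KO library, and Xcr1 in every KO-IR library. The part of leukocytes in the fall of the immune subunits was not tested.

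The summed level of 10 proximal tubule markers was 14142 to 16614 CPM in Control, 15110 to 17348 CPM in KO, 4644 to 10433 CPM in Control-IR and 3203 to 3792 CPM in KO-IR. In KO-IR against Control-IR, 5 of the 10 were called lower and 0 higher, from Slc5a12 at -3.56 (edgeR adjusted p = 4.99e-04) to Slc5a2 at -0.13. Of 11 markers of other kidney cells, 4 were called lower and 1 higher, from Col1a1 at -3.47 (edgeR adjusted p = 2.95e-04) to Kdr at 0.63 (edgeR adjusted p = 0.00782). The tubule injury genes Lcn2 (2.43) and Havcr1 (1.53) were both higher. All 10 proximal tubule markers were detected in every group, as kidney cortex should show. The summed level of the 31 core and regulatory particle genes of the standard proteasome was 2441 to 2942 CPM in Control, 2733 to 3180 CPM in KO, 3154 to 3350 CPM in Control-IR and 4449 to 5136 CPM in KO-IR. The part of tubule injury in this rise was not tested.

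**Figure D5:**
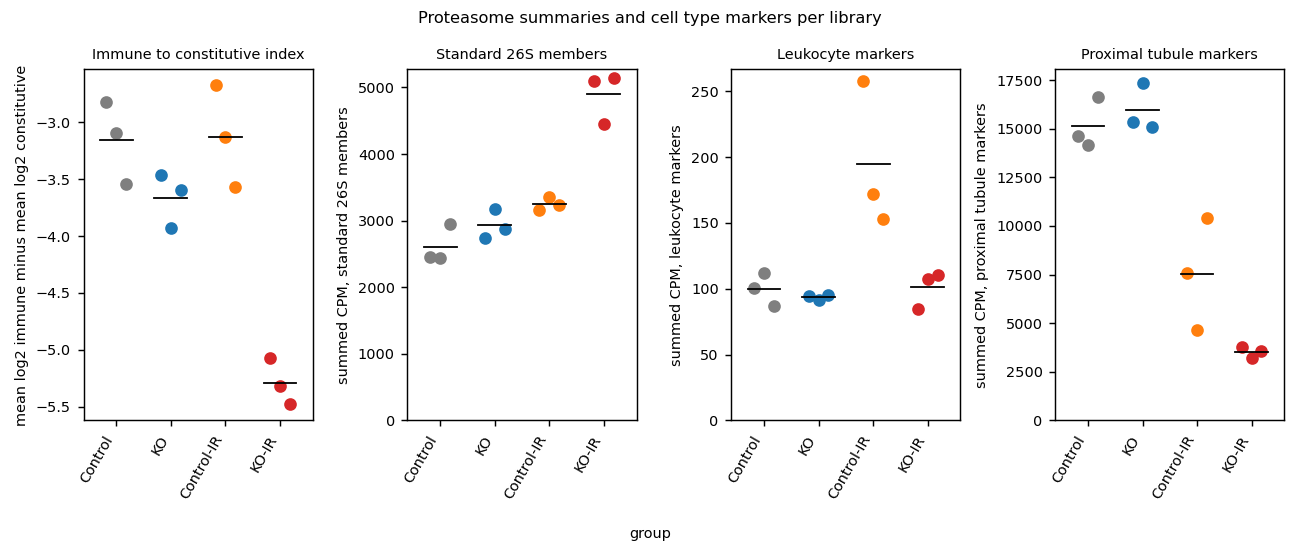
Points are libraries and bars group means, for the immune to constitutive index (log2), the summed CPM of the 31 standard core and regulatory particle genes, and the summed CPM of 20 leukocyte and 10 proximal tubule markers. The index is -5.07 or lower in KO-IR and -3.93 or higher elsewhere, and the leukocyte sum is highest in Control-IR.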

How the data were processed

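Cortical RNA of 12 libraries was sequenced on an Illumina HiSeq X instrument. The deposited values are raw read counts per Ensembl gene in 1 table. The submitters' processing notes name HISAT2 2.0.4 and mm10, while the count program, the annotation and its strand setting are not given in the sources used here. Symbols, positions and lengths came from GENCODE M21 (build GRCm38, the same as mm10). Column Con-3 matched no sample number and entered as an unnumbered Control library.

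Low genes were removed by filterByExpr and TMM factors were computed. Each comparison of 2 groups was then fitted to its own 6 libraries, and the interaction to all 12, by quasi-likelihood (edgeR 4.0.16, R 4.3.3). p-values were adjusted over all genes by Benjamini-Hochberg, and called means under 0.05. SE is the log2 fold change divided by the square root of F. Levels per kilobase used the APPRIS principal transcript. Alternatives were DESeq2 1.42.0, library totals, no filter, a minimum of 10 counts per library, all 12 libraries fitted at once, a block by replicate number, sex as a covariate, and leaving out libraries. A permutation test of 3 against 3 libraries cannot go below p = 0.1, so none was used. The fits were tested on simulated data.

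The members and lists were chosen with earlier results of these data known. Genes were named by role (catalytic subunits and activators), as the highest and lowest log2 fold change of each other group in KO-IR against Control-IR, as the 5 smallest p in each other comparison, and as members called against their group. Psmd9, Psmd13 and Psmc3 were added for shared exons, and the GAS and CCAAT letters were added to the motifs, after values were seen. Protein sequences were not used here, and values of some listed genes outside the members are not reported here.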

Additional observations from a re-analysis of the deposited data

Results flagged for a closer look

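The I/R effect differed between the genotypes for 10 of the named proteasome genes, by the interaction term of edgeR over 16168 genes. The differences in log2 fold change (with the knockout minus without) were -2.45 for Psmb9, -1.28 for Psmb8, 0.91 for Psmd3, 0.77 for Psmd11, 0.73 for Psmb3, 0.72 for Psma7, 0.59 for Psmc1, 0.57 for Psmd1, 0.52 for Psmd8 and 0.40 for Psme3. Psme3 was the least stable of these: its adjusted p rose above 0.05 under library totals, without a filter, without both Xist-carrying Control libraries and when most of the libraries were left out in turn, reaching 0.15 in edgeR without a filter. Groups of 3 libraries were not screened for outlying libraries.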

How the results depend on the processing

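The number of members called higher in Control-IR against Control (10) was 18 by DESeq2, 28 with library totals, 23 in 1 fit to all 12 libraries, 3 with sex as a covariate and 1 without both Xist-carrying Control libraries. With DESeq2, library totals, 1 fit to all 12 libraries and sex as a covariate, 2164, 2346, 2594 and 1066 of all genes were called higher, against 1778. Leaving out 1 library gave 0 members (Control library 1 or 2) to 19 (the unnumbered one). In KO-IR against Control-IR, library totals gave 19 higher. Leaving out 1 library gave 28 to 31 higher and 3 to 5 lower, with 3 lower without Control-IR library 1 or any KO-IR library. Over all genes these fits called 2351 to 3588 higher and 2567 to 3921 lower, against 3444 and 3725. KO against Control gave 0 to 10 higher over the libraries left out, with 10 when the unnumbered Control library was left out. Leaving that library out keeps only Xist-carrying Control libraries, so sex cannot be told apart from the tested effect. The interaction gave 10 higher without a filter and 1 lower with at least 10 counts in every library, which removed Psmb9. Leaving out 1 library gave 8 to 18 higher (8 without KO library 1 or KO-IR library 4, 9 without KO library 4) and 1 to 5 lower (5 without Control-IR library 4). Without Control-IR library 4, 2324 of all genes were called lower, against 2648 with all libraries. In KO-IR against KO all alternatives gave 33 to 35 higher and 2 or 3 lower.

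The deviations of same-numbered libraries of different groups from their group means had r from -0.19 to 0.18 over 12 pairs. Pairs with different numbers were not set beside them, so whether a number marks anything shared was not tested. With the replicate block, 4 members were called higher and 1 lower in KO-IR against Control-IR. Calls over all genes fell from 3444 higher and 3725 lower to 685 and 998, and the member median was 0.57 against 0.50. Control-IR library 1 and KO-IR library 3 are each alone in their block, so this fit rests on libraries 2 and 4 of each group. Psmb9 remained called (-2.21, edgeR adjusted p = 0.0493), whereas Psmb8 (-1.09, 0.0615), Psmb10 (-0.87, 0.105) and Psme2b (-0.41, 0.336) were no longer called. The block gave 15 higher in Control-IR against Control (1971 of all genes) and 3 higher in KO against Control (792 of all genes). In the interaction it gave 9 higher and 1 lower (1396 and 1819 of all genes). The unnumbered Control library is alone in its block in these fits, so Control rests on its Xist-carrying libraries. Sex and the tested effect cannot be told apart there.

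Some log2 changes of uncalled members reversed. Psmb7 in Control-IR against Control was -0.10 with sex as a covariate and -0.12 without both Xist-carrying libraries. Psmb8 in KO against Control was 0.020 and 0.0079 in these fits. Psmd5 in KO-IR against Control-IR was -0.061 with library totals. With 1 library left out, Psmb9 in Control-IR against Control ran from -0.31 (without Control-IR library 1) to 0.25, and Psme4 in KO-IR against Control-IR from -0.13 to 0.075 (without Control-IR library 4). The cause was not tested. Of the values of single members, 24 of 126 in Control-IR against Control, 20 of 208 in the interaction, 26 of 259 in KO-IR against Control-IR and 6 of 194 in KO-IR against KO kept their direction but lost their call.

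Removing both Xist-carrying libraries leaves 1 Control library, which is assumed to vary like the other groups. By union exon lengths, chosen after seeing the data, the immune share in KO-IR was 3.08% in place of 2.52%. Psmb9 rests on few reads in KO-IR, which limits the precision of its fold change.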
